A study of Mus musculus with 24 samples.

Results

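The collagens, laminins and integrins were examined in male mouse embryonic stem cells (mESCs) during 4 days of differentiation, with and without knockdown of a subunit of the BAF chromatin remodelling complex. Members were taken by gene symbol: Col, a number, a and a number for the collagens, Lam with a, b or c and a digit for the laminins, and Itg with a or b and a number for the integrins, plus *Itgav*. This gave 74 of the 25965 entries of the expression table, made up of 43 collagens, 11 laminins and 20 integrins. Integrin chains named with letters, such as *Itgal* and *Itgam*, were outside this rule. All cells were of 1 kind, a C57/Bl6 mESC line expanded in 2i and weaned into differentiation medium. They were transduced with shRNA on day 2, put under puromycin on day 3 and harvested on days 4, 5, 6 and 7. The groups were the nonsilencing control (Nons), *Smarcc1* knockdown with hairpins Smarcc1.6 and Smarcc1.7, and *Smarca4* knockdown with hairpins Smarca4.4 and Smarca4.6. Each hairpin and Nons was represented by 1 library per day, so 4 Nons libraries, 8 *Smarcc1* knockdown libraries and 8 *Smarca4* knockdown libraries were compared. No label states that libraries of a group came from separate cultures, and the *p*-values given here measure the spread between the hairpins of a gene on the same day.

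Collagens are trimers of alpha chains that form fibrils, networks and beaded filaments outside the cell. Laminins are cross-shaped heterotrimers of an alpha, a beta and a gamma chain, and with collagen IV they form the basement membrane, the first extracellular matrix laid down by the embryo. Integrins are receptors made of an alpha and a beta chain that bind these matrix proteins and connect them to the actin cytoskeleton. In mESCs, laminin-511 (chains *Lama5*, *Lamb1* and *Lamc1*) and laminin-111 (chains *Lama1*, *Lamb1* and *Lamc1*) are well-known substrates, bound by integrin α6β1 among others.

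Library totals ranged from 6829596 to 27472885 reads, the smallest being Smarca4.4 on day 5, and 3 reads corresponded to 0.109 to 0.439 rpm, where rpm corrects each count for library size. *Smarcc1* was at 23.7% to 60.1% of same-day Nons in its 8 knockdown libraries, and *Smarca4* was at 21.6% to 55.3% in its own 8. The *Smarcc1* libraries of day 5 stood apart for the matrix genes, in opposite directions. That of Smarcc1.6 held the lowest value of its day for 23 of the 44 members that entered tests (52.3%), against 36.3% of all genes, and that of Smarcc1.7 the highest for 23 (52.3%), against 16.7% of all genes. Calls between groups that changed without either library are given with both values. These libraries were singled out by their values of the members themselves, so such changes describe the dependence on them and lend no support to a call. All 12 pluripotency markers were detected in every library, and their sum fell from 4290.0 rpm on day 4 to 1169 rpm on day 7 in Nons. The same sum was 2082 to 2439 rpm in *Smarcc1* knockdown and 1715 to 1756 rpm in *Smarca4* knockdown on day 7. The 15 parietal and visceral endoderm markers summed to 954 rpm in Nons on day 7. Their sum was 1655 to 1686 rpm in *Smarcc1* knockdown and 2459 to 2783 rpm in *Smarca4* knockdown that day. More than 3 reads were found for 11 of them in Nons, 15 with the *Smarcc1* hairpins and 10 to 11 with the *Smarca4* hairpins. Gene by gene the knockdowns stood in the other order. Of the 6 markers that entered tests, 4 were higher than Nons over the days in *Smarcc1* knockdown, against 7.54% of all genes. In *Smarca4* knockdown 2 were, against 4.75% (limma adjusted *p* under 0.05). The median log2 differences from Nons were 1.03 and 0.17. Mesenchyme and fibroblast markers summed to 3320.1 rpm in Nons against 862 to 1396 rpm in the 4 knockdown libraries on day 7. The defining blood markers *Ptprc*, *Hbb-bh1* and *Hba-a1*, the endothelial *Emcn* and the mesenchymal *Prrx1* had at most 3 reads in every library. Other markers of these lists were detected. Per library, 2 to 4 of 7 blood, 5 to 7 of 8 endothelial and 8 to 10 of 12 mesenchymal markers had more than 3 reads. The blood markers summed to 4.05 to 14.1 rpm and the endothelial markers to 22.7 to 96.8 rpm. In such bulk samples, fewer cells of a type and less RNA per cell cannot be told apart, and the part of these marker differences in the results below was not tested.

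The most abundant member per length was *Itgb1*, the beta chain shared by most matrix-binding integrins. Its level had a median of 97.7 rpm per kb of exon over the 20 libraries, with a lowest value of 48.0 and a highest of 294. *Col18a1*, a basement membrane collagen that carries the endostatin domain, followed with a median level of 56.5 rpm per kb (22.9 to 129.8). The laminin chains *Lamc1*, *Lama5* and *Lamb1* had median levels of 28.3, 18.0 and 10.9 rpm per kb. Among the integrins, *Itga3* and *Itga6*, both laminin receptors, had median levels of 20.8 and 17.8 rpm per kb, followed by *Itgb5* at 15.6 and the fibronectin receptor chain *Itga5* at 10.8. These 9 genes were the only members with a median level above 10 rpm per kb, and their ranges over libraries overlapped with those of their neighbours in this order. A further 9 members had a median level of 1 to 10 rpm per kb and 56 a median under 1. The most abundant set thus held the chains of laminin-511 and the integrin chains α3, α5, α6, β1 and β5, and a single collagen.

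**Figure D1:**
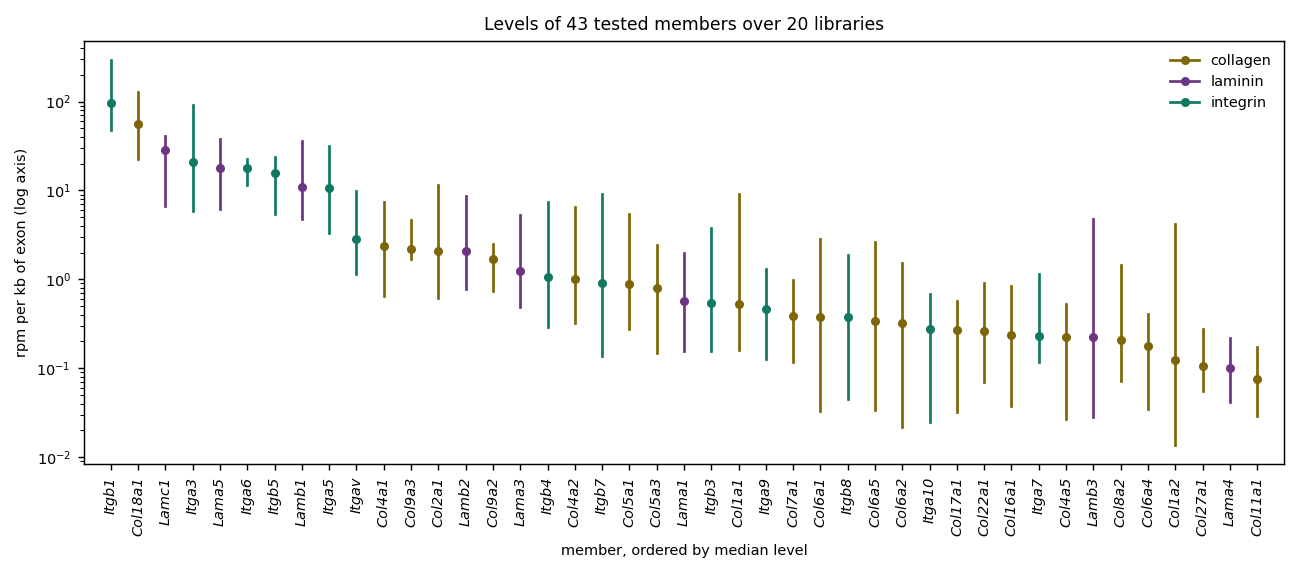
Level of 43 of the 44 tested members in rpm per kb of exon on a log axis, ordered by median; the point is the median and the line runs from the lowest to the highest of the 20 libraries. *Itgb1* (97.7 rpm per kb) and *Col18a1* (56.5 rpm per kb) stand at the top, and *Itga6* spans a narrow range of 11.5 to 22.9.

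Differences were tested on log2 rpm after removal of genes whose log2 rpm averaged below 0 over all libraries, which left 13296 genes and 44 of the 74 members. These were 22 of 43 collagens, 9 of 11 laminins and 13 of 20 integrins. The filter used the mean over all 20 libraries, so a member that was high in 1 group or on 1 day could pass through that group. Of the 30 members left out, 3 (*Col19a1*, *Col28a1* and *Col4a4*) had at most 3 reads in every library, and 15 had more than 3 reads in 10 or more libraries. None exceeded 5.01 rpm anywhere. Several of these low genes were nevertheless tied to a day. *Col8a1*, a short-chain network collagen, had 0 reads in all 5 libraries of day 4 and 39 to 94 reads on day 7. *Itga11*, a receptor chain for fibrillar collagen, had 0 to 4 reads on day 4 and 45 to 88 on day 7. *Col12a1*, which associates with collagen I fibrils, had 2 to 13 reads on day 4 and 21 to 90 on day 7. In the other direction, *Col14a1*, a relative of *Col12a1*, had 21 to 61 reads on day 4 and 0 to 2 on day 7. *Itga1*, a collagen IV receptor chain, had 43 to 71 reads on day 4 and 7 to 17 on day 7. These 5 genes were picked from the 30 after their reads were seen, and their reads on day 4 and day 7 did not overlap. They were not the only such genes. *Col11a2* had 5 to 13 reads on day 4 and 21 to 44 on day 7, and *Col24a1* 0 to 1 and 6 to 18. The reads of *Col25a1*, *Col20a1* and *Col6a6*, given under other observations, did not overlap either. The share of all genes with such a separation was not counted, and reads are not corrected for library size. Among the genes tested, 64.5% differed between these days in either direction (limma adjusted *p* under 0.05). *Col3a1*, the reticular fibre collagen, had 3 to 9 reads on day 4 and 0 to 8 on day 7, and *Lama2*, the main laminin alpha chain of muscle, had 0 to 5 and 0 to 14.

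Most tested members rose during differentiation. Averaged over Nons and both knockdowns, 29 of 44 were higher on day 7 than on day 4 (limma adjusted *p* under 0.05), against 35.7% of all genes tested, and 5 were lower, against 28.8%. In either direction 34 members passed, against 64.5% of all genes. The median change of the 44 members was 1.55 on the log2 scale, against 0.08 for all genes tested. The rise was a late one. From day 4 to day 5 only 14 members were higher, with a median step of -0.21, against 48.1% of all genes and a median step of -0.03. From day 5 to day 6, 34 members were higher, with a median step of 0.73, against 49.4% of all genes and a median step of -0.01. From day 6 to day 7, 41 were higher, with a median step of 0.94, against 60.8% of all genes and a median step of 0.15.

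Among the fibrillar collagens, 4 of 7 tested rose, 3 did not pass and none fell. *Col1a2*, the α2 chain of collagen I, ranged from 0.171 to 1.31 rpm in the 5 libraries of day 4 and from 6.93 to 51.7 rpm on day 7, with no overlap. Its log2 change of 5.67 ± 0.38 (SE) was the largest among the members (adjusted *p* = 6.14e-08). *Col1a1*, the α1 chain of the same trimer, went from 1.57 to 2.42 rpm on day 4 to 15.9 to 60.4 rpm on day 7, a log2 change of 3.92 ± 0.41 (adjusted *p* = 3.10e-06). *Col2a1*, the cartilage collagen, and *Col5a1*, which nucleates collagen I fibrils, also rose, by 2.72 and 2.63. *Col5a3* and *Col11a1* had log2 changes of 0.40 and 0.28 (adjusted *p* = 0.159 and 0.432). The collagen I chains thus changed together. On day 4 the trimer's α2 chain was barely present in Nons, with 8 reads, and in *Smarca4* knockdown. Smarca4.4 had 4 reads, or 0.171 rpm, and Smarca4.6 had 5. With Smarcc1.6 and Smarcc1.7 it had 27 and 29 reads that day.

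All 3 tested chains of basement membrane collagen IV rose. *Col4a2* went from 3.81 to 5.61 rpm on day 4 to 36.1 to 43.1 rpm on day 7, a log2 change of 3.04 ± 0.37 (adjusted *p* = 1.06e-05). *Col4a1* went from 15.5 to 20.2 rpm to 30.7 to 55.5 rpm, a log2 change of 1.29 ± 0.36 (adjusted *p* = 0.00664). *Col4a5* reached 2.84 to 3.57 rpm on day 7 from 0.181 to 0.437 rpm, a log2 change of 3.28. *Col4a1* and *Col4a2* encode the chains of 1 trimer and lie head to head on chromosome 8, and *Col4a2* rose the more of the pair. In RefSeq (GRCm38.p6) their annotated starts are 21 bases apart, with the *Col4a2* start at 11312805 on the plus strand and the *Col4a1* start at 11312826 on the minus strand. The stretch from start to start (chr8:11312805-11312826, plus strand) is shown because both genes begin in it:

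*Col4a1* and *Col4a2* starts: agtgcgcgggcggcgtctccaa

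The log2 rpm of the pair had a Pearson correlation of 0.88 over the 20 libraries, which share days and depth. The 5 tested genes most like *Col4a1* over the 20 libraries were *Sulf2*, *Ckap4*, *Irgq*, *Pdcd6ip* and *Fkbp10*, with Pearson *r* of 0.95 to 0.96.

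Among the beaded filament, network and anchoring collagens, 4 of 6 tested rose and 2 fell. *Col6a1* and *Col6a2*, which with another chain build collagen VI microfibrils, rose from 0.146 to 0.411 rpm and from 0.181 to 0.958 rpm on day 4 to 6.23 to 12.4 rpm and 4.58 to 12.8 rpm on day 7. Their log2 changes were 5.19 ± 0.41 and 4.06 ± 0.41 (adjusted *p* = 2.50e-07 and 2.29e-06). *Col6a5* and *Col6a4*, chains that can take the place of that other chain, went the other way. *Col6a5* was at 19.7 to 25.0 rpm on day 4 and 0.320 to 1.18 rpm on day 7, and fell by 5.16 ± 0.31 on the log2 scale (adjusted *p* = 2.24e-08). *Col6a4* was at 1.92 to 3.49 rpm on day 4 and 0.296 to 1.74 rpm on day 7, and fell by 2.31 ± 0.30. *Col6a3*, the usual partner chain, was not tested, with 11 to 58 reads on day 4 and 0 to 39 on day 7. The collagen VI genes therefore did not share a direction, and on neither day were *Col6a1*, *Col6a2* and *Col6a5* all abundant.

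The fibril-associated collagens (4 tested) gave 2 rises, *Col16a1* and *Col22a1*, with log2 changes of 2.91 and 1.71. *Col9a2* and *Col9a3*, chains of the cartilage collagen IX, had log2 changes of 0.09 and -0.17 and did not pass. *Col18a1* made up 78.1% to 80.7% of the summed collagen level per kb on day 4 and 68.2% to 74.3% on day 7. Its own level rose by 0.92 ± 0.25 on the log2 scale (adjusted *p* = 0.00567), from 384 to 424 rpm on day 4 to 703 to 911 rpm on day 7.

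**Figure D2:**
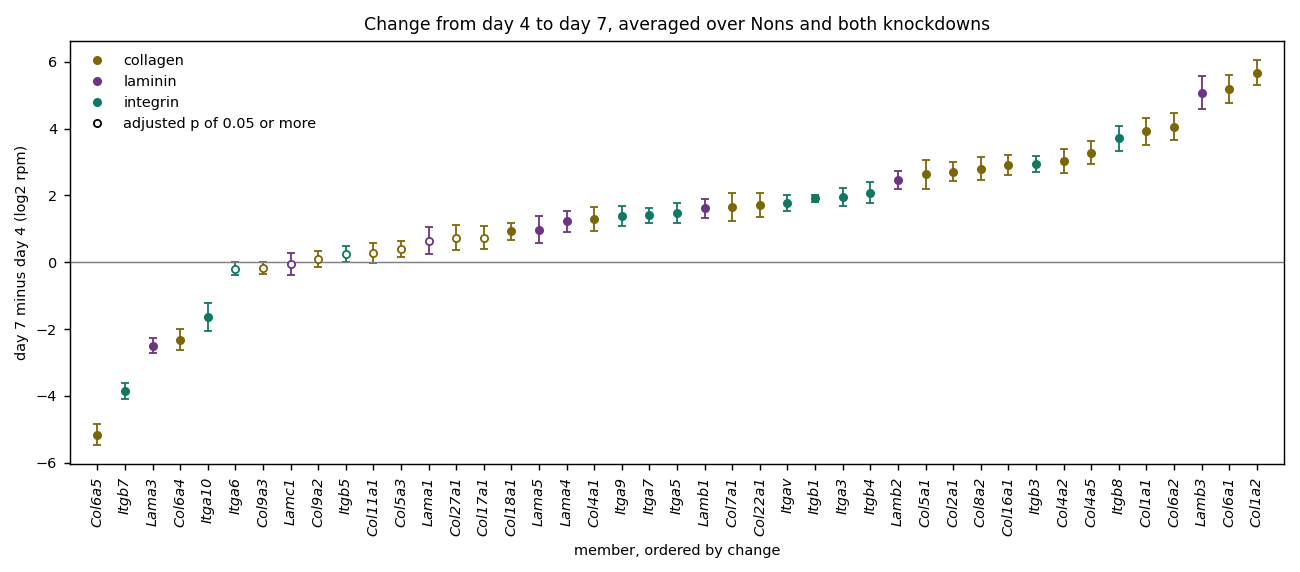
Day 7 minus day 4 in log2 rpm for 43 of the 44 tested members, averaged over Nons, *Smarcc1* knockdown and *Smarca4* knockdown, ordered by size; bars are standard errors, and open points did not pass an adjusted *p* of 0.05. The rise is 5.67 for *Col1a2* at the right, and the fall is -5.16 for *Col6a5* at the left.

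Of the 9 laminin chains tested, 6 rose, 1 fell and 2 did not pass. *Lamb1* rose from 94.6 to 104 rpm on day 4 to 243 to 356 rpm on day 7, a log2 change of 1.61 ± 0.29 (adjusted *p* = 2.81e-04). *Lama5* rose from 161 to 213 rpm to 302 to 438 rpm. Its log2 change of 0.98 ± 0.40 passed narrowly (adjusted *p* = 0.0479) and missed the threshold without Smarca4.4 (0.113), without Smarca4.6 (0.174) without the smallest library (0.0603), with the filter at a mean of 10 rpm (0.0547), with median centring (0.0579) or in the knockdown libraries alone (0.0818). *Lamc1*, the gamma chain of both laminin-111 and laminin-511, had 215 to 339 rpm on day 4 and 248 to 277 rpm on day 7, a log2 change of -0.05 ± 0.33 (adjusted *p* = 0.901). Between these days it was lower, with a mean step of -1.37 from day 4 to day 5 and 55.2 to 146 rpm on day 5. *Lama5* and *Lamb1* thus rose and *Lamc1* did not pass. The differences between the chains were not tested.

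The alpha and beta chains of laminin-332, the laminin that anchors epithelia, moved in opposite directions. *Lama3*, its alpha chain, fell from 36.9 to 56.7 rpm on day 4 to 5.26 to 12.8 rpm on day 7, by 2.49 ± 0.23 on the log2 scale (adjusted *p* = 8.66e-07). *Lamb3*, its beta chain, rose from 0.272 to 0.692 rpm to 7.92 to 31.5 rpm, a log2 change of 5.08 ± 0.48 (adjusted *p* = 1.33e-06). The day 4 and day 7 values of these chains did not overlap. Per kb of exon, *Lama3* fell from 16.8% to 22.2% of the summed laminin alpha level on day 4 to 1.43% to 3.35% on day 7, while *Lama5* went from 75.0% to 80.8% to 89.2% to 97.3%.

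Of the 13 integrins tested, 9 rose, 2 fell and 2 did not pass. *Itgb1* was at 251 to 319.7 rpm on day 4 and at 797 to 1200.4 rpm on day 7, a log2 change of 1.91 ± 0.11 (adjusted *p* = 2.05e-08). *Itga3* rose by 1.96 ± 0.27, *Itgav* by 1.77 ± 0.24 and *Itga5* by 1.48 ± 0.30 (adjusted *p* = 3.47e-05, 2.75e-05 and 7.99e-04). *Itga6*, which marks early epithelia and stem cells, had 159 to 189 rpm on day 4 and 147 to 161 rpm on day 7, a log2 change of -0.19 ± 0.20 (adjusted *p* = 0.415). The make-up of the alpha chains differed between the days. Per kb of exon, *Itga6* held 30.9% to 42.1% of the summed alpha level on day 4, 37.9% to 52.1% on day 5 and 11.4% to 14.5% on day 7. *Itga3* held 29.8% to 45.1%, 23.0% to 31.4% and 53.5% to 60.4% on the same days. Day 4 and day 7 did not overlap for either chain.

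Among the beta chains, *Itgb8* and *Itgb3*, which pair with αv, rose by 3.71 ± 0.38 and 2.94 ± 0.24, and *Itgb4*, the partner of α6 in hemidesmosomes, rose by 2.09 ± 0.33. *Itgb5*, another partner of αv, had a log2 change of 0.25 ± 0.23 (adjusted *p* = 0.365). *Itgb7*, best known from lymphocytes, fell from 11.8 to 25.6 rpm on day 4 to 0.770 to 2.52 rpm on day 7, by 3.86 ± 0.23 on the log2 scale (adjusted *p* = 2.39e-08). It held 5.02% to 10.6% of the summed beta level per kb on day 4 and at most 0.404% on day 7. *Itga10*, a collagen receptor chain, fell by 1.64 ± 0.42, but 33.5% of its exon bases overlap exons of another annotated gene, so its reads are uncertain.

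**Figure D3:**
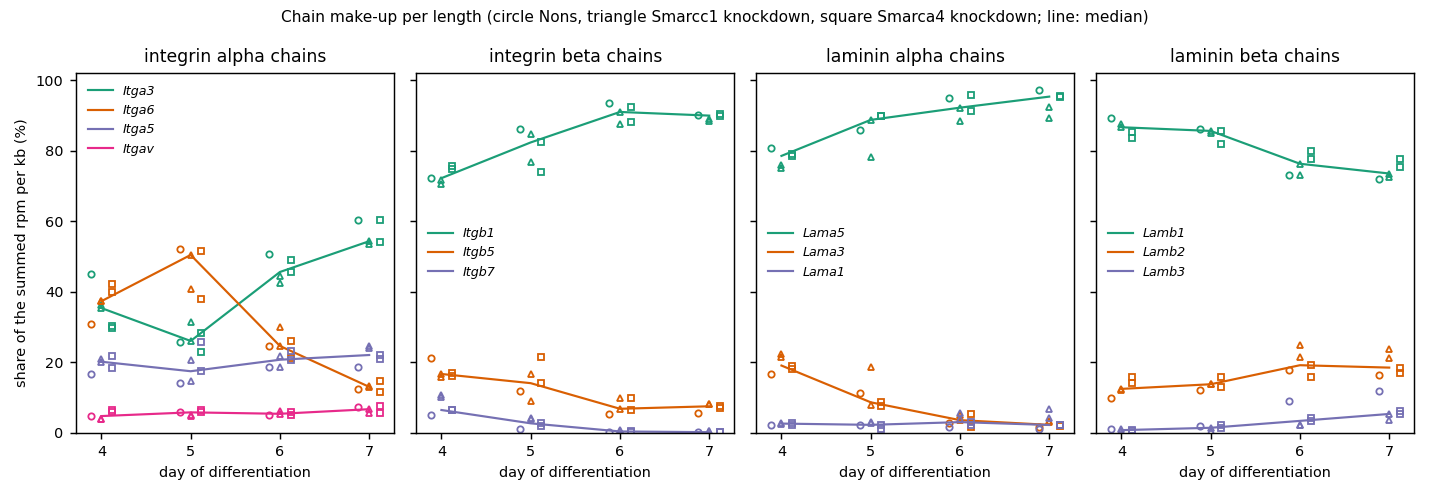
Share of the summed rpm per kb of exon taken by single chains, by day, for the integrin alpha, integrin beta, laminin alpha and laminin beta chains; circles are Nons, triangles *Smarcc1* knockdown, squares *Smarca4* knockdown, and lines join the medians of the 5 libraries. *Itga3* passes *Itga6* between day 5 and day 6, and *Lama3* falls to 1.43% to 3.35% of the laminin alpha chains on day 7.

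Averaged over the 4 days, 7 members were higher in *Smarcc1* knockdown than in Nons and 2 were lower, of 44 tested. The share of all genes tested was 7.54% higher and 3.08% lower, or 10.6% in either direction, against 20.5% of the members. With quantile normalization the members divided into 4 higher and 3 lower, and all genes into 600 and 518 in place of 1003 and 409. The median log2 difference of the members was 0.25, against 0.06 for all genes. Each such comparison rests on a single Nons series, and the same 4 Nons libraries served both knockdowns. With the culture series as a block, 4 members (9.09%) passed, *Col5a3*, *Itgb7* and *Itga7* among them, against 4.55% of all genes. Without the day 5 library of Smarcc1.6, 15 members (34.1%) passed, against 13.5% of all genes, and without that of Smarcc1.7, 9 (20.5%), against 10.9%. The 6 members gained without Smarcc1.6 on day 5 were all higher. That library was singled out after its low values of the members were seen. It lay below Smarcc1.7 for these 6, so leaving it out was bound to raise their mean, and the gains lend no support. They were *Col6a1* (1.34, adjusted *p* = 0.0199), *Col1a2* (1.23, 0.0198), *Col16a1* (1.07, 0.0258), *Col22a1* (1.06, 0.0121), *Col9a2* (0.73, 0.0382) and *Lama3* (0.68, 0.0496). With all libraries their log2 differences were 1.13, 1.02, 0.96, 0.83, 0.64 and 0.62 (adjusted *p* = 0.0798, 0.0887, 0.0507, 0.135, 0.0850 and 0.0835).

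Upstream stretches are shown for 4 members on which these comparisons turn, *Col5a3*, *Itgb7* and *Col17a1*, which were higher after knockdown, and *Itgb1*, which was lower. They come from RefSeq (GRCm38.p6), are read 5′ to 3′ on the strand of the gene, begin 250 bases before the annotated start and stop before the first annotated exon. Capitals mark matches on either strand to 4 motifs, none of which overlapped another. The GC box, bound by Sp factors, was searched as GGGCGG. The CCAAT box, bound by NF-Y, was searched by the letters of its name. The TATA box, where the TATA-binding protein sits, was searched as TATAAA, with no flanking letters required. The AP-1 motif, bound by Fos and Jun, was searched as TGANTCA.

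*Col5a3*, chr9:20815068-20815317, minus strand: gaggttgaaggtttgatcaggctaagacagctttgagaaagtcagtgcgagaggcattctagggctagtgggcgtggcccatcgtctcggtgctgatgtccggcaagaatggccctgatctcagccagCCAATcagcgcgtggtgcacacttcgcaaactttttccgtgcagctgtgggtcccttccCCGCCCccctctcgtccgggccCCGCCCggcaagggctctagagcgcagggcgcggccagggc
*Itgb7*, chr15:102231945-102232185, minus strand: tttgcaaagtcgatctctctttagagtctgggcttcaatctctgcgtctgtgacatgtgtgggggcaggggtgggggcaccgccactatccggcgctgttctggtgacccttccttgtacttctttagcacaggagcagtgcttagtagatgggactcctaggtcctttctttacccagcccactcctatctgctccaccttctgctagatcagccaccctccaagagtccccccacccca
*Itgb1*, chr8:128685404-128685653, plus strand: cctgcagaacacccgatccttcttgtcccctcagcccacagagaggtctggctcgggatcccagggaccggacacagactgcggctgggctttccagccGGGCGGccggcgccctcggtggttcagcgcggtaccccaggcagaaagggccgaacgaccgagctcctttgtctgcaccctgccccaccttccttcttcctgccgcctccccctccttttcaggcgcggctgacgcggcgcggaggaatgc
*Col17a1*, chr19:47692095-47692292, minus strand: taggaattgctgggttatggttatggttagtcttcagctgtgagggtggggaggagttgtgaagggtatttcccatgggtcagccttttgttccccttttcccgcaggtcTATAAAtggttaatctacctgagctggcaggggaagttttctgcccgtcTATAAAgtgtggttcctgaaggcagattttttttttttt

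The *Col5a3* stretch holds 2 GC boxes and 1 CCAAT box, that of *Itgb1* 1 GC box, that of *Col17a1* 2 TATA boxes, and that of *Itgb7* none of the 4 motifs. Promoter windows were matched for 55 of the 74 members, with 61 windows. In the 250 bases before the start, 49.2% of these held a GC box, 26.2% a CCAAT box, 8.20% a TATA box and 1.64% an AP-1 motif. The shares over all 32851 windows were 32.7%, 33.8%, 12.4% and 6.75%. A match describes the letters only. Windows for *Lama1*, *Itga7* and *Col1a1*, among others, were not matched.

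*Col5a3*, a minor chain of the fibrillar collagen V, showed the largest difference. It was at 3.24, 1.32, 1.02 and 3.73 rpm on days 4 to 7 in Nons, against 7.30, 4.39, 7.03 and 16.5 rpm with Smarcc1.6 and 6.30, 7.12, 12 and 15 rpm with Smarcc1.7. All 8 knockdown libraries were above the Nons library of their day, and the lowest of them was above the highest Nons value. The mean log2 difference was 2.10 ± 0.22 (SE), or 4.29-fold, with an adjusted *p* of 7.46e-05, and it passed under all 13 alternatives run.

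*Itgb7* fell in every group, but from a higher start after *Smarcc1* knockdown. Nons had 11.8, 2.53, 0.382 and 0.853 rpm on the 4 days, Smarcc1.6 had 24.3, 6.97, 2.27 and 2.52 rpm, and Smarcc1.7 had 25.6, 6.83, 2.03 and 2.31 rpm. The hairpins were close to each other and above Nons on each day, with a mean log2 difference of 1.63 ± 0.21 (adjusted *p* = 3.52e-04). *Itga7*, the muscle laminin receptor chain, had 1.42, 0.962, 1.08 and 1.65 rpm in Nons, 1.23, 2.17, 5.47 and 9.29 rpm with Smarcc1.6 and 1.59, 2.56, 4.38 and 5.86 rpm with Smarcc1.7. It was above Nons in 7 of 8 libraries and differed by 1.40 ± 0.21 (adjusted *p* = 9.65e-04), with Nons nearly level over the days while both hairpins climbed. Both calls held under all 13 alternatives.

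The collagen I chains were higher after *Smarcc1* knockdown in most libraries, but only *Col1a1* passed. It had 1.57, 1.06, 2.04 and 20.2 rpm in Nons, 2.42, 1.25, 5.78 and 60.4 rpm with Smarcc1.6 and 2.27, 4.13, 13.7 and 51.9 rpm with Smarcc1.7. All 8 libraries were above same-day Nons, by 1.32 ± 0.38 on the log2 scale (adjusted *p* = 0.0423). The call was lost with the block (adjusted *p* = 0.178), without Smarcc1.7 (0.183), without Smarca4.4 (0.0762), without Smarca4.6 (0.0757), without the smallest library (0.0571), without Smarcc1.7 on day 5 (1.10, 0.0550), with voom (0.0596) and with the 10 rpm filter (0.0712). *Col1a2* had a log2 difference of 1.02 ± 0.35 (adjusted *p* = 0.0887), and *Col6a1* one of 1.13 ± 0.38 (adjusted *p* = 0.0798), with all 8 libraries above Nons.

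*Lama1*, the alpha chain of laminin-111, was also higher. Nons had 4.48, 2.79, 2.54 and 3.73 rpm, Smarcc1.6 had 5.66, 1.99, 6.85 and 19.3 rpm, and Smarcc1.7 had 6.07, 8.02, 12.9 and 17 rpm. The hairpins were above Nons on each day, except Smarcc1.6 on day 5. The log2 difference was 1.27 ± 0.37 (adjusted *p* = 0.0477), and the call was lost with the block (adjusted *p* = 0.191), without Smarcc1.7 (0.193), without Smarca4.4 (0.0943), without Smarca4.6 (0.0939) and with quantile normalization (0.0602). *Lamb1* and *Lamc1* had log2 differences of 0.03 ± 0.26 and 0.23 ± 0.30 (adjusted *p* = 0.966 and 0.704), and whether *Lama1* differed from them was not tested. The level of *Lama5* was 98.0 times that of *Lama1* per kb in Nons on day 7, 13.4 times with Smarcc1.6 and 21.9 times with Smarcc1.7, against 44.5 and 44.7 times with the *Smarca4* hairpins. On day 4 this ratio was 28.9 to 38.4 in the 5 libraries. The 5 tested genes most like *Lama1* over the 20 libraries were *Dmxl2*, *Camkk2*, *Adcy9*, *Kidins220* and *Zhx3*, with Pearson *r* of 0.89 to 0.94.

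*Col17a1*, a transmembrane collagen of hemidesmosomes, had 1.02, 1.62, 0.191 and 1.01 rpm in Nons, the day 6 value being 3 reads. With Smarcc1.6 it had 0.958, 1.11, 1.65 and 2.06 rpm and with Smarcc1.7 0.816, 3.46, 3.43 and 2.74 rpm, so that on day 4 the groups did not differ in this direction. It was above same-day Nons in 5 of 8 libraries. For both hairpins the gap was widest on day 6, against those 3 reads. The log2 difference was 1.23 ± 0.32 (adjusted *p* = 0.0255), lost with the block (0.122), without Smarcc1.7 (0.141), without Smarca4.4 (0.0880) and without Smarca4.6 (0.0875). With log2(rpm + 1) it was 0.60 (adjusted *p* = 0.0846) and with quantile normalization 0.75 (0.155). *Col6a4* was at 3.49, 1.52, 0.445 and 0.320 rpm in Nons, 2.88, 1.66, 1.07 and 1.74 rpm with Smarcc1.6 and 2.76, 3.18, 1.78 and 1.5 rpm with Smarcc1.7. *Col6a4* in Nons was above both *Smarcc1* hairpins on day 4 and below both on days 5 to 7. Its mean log2 difference was 1.06 ± 0.28 (adjusted *p* = 0.0270), lost with the block (0.155), without Smarcc1.6 (0.0529) and without Smarcc1.7 (0.200). With log2(rpm + 1) it was 0.47 (adjusted *p* = 0.0597) and with quantile normalization 0.46 (0.347).

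*Itgb1* was lower after *Smarcc1* knockdown. It had 251, 293, 795 and 1200.4 rpm in Nons, 252, 209, 477 and 817 rpm with Smarcc1.6 and 252, 196, 524 and 797 rpm with Smarcc1.7. The groups were level on day 4, and both hairpins were below Nons afterwards, giving a mean of -0.44 ± 0.10 (adjusted *p* = 0.0146). This call was lost with the block (adjusted *p* = 0.0868), without Smarcc1.6 (0.0725) and without Smarcc1.7 (0.102), with the same mean in each case.

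The remaining core members did not pass in this comparison. Their log2 differences were -0.14 ± 0.33 for *Col4a1*, 0.09 ± 0.34 for *Col4a2*, -0.01 ± 0.37 for *Lama5*, -0.25 ± 0.25 for *Itga3* and 0.17 ± 0.28 for *Itga5*. *Itga6*, *Itgav* and *Itgb5* had differences of -0.02 ± 0.18, -0.24 ± 0.22 and -0.18 ± 0.21. *Lamb3* had a log2 difference of -1.32 ± 0.44 (adjusted *p* = 0.0844), and -1.64 ± 0.33 (adjusted *p* = 0.00680) without Smarcc1.7 on day 5.

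**Figure D4:**
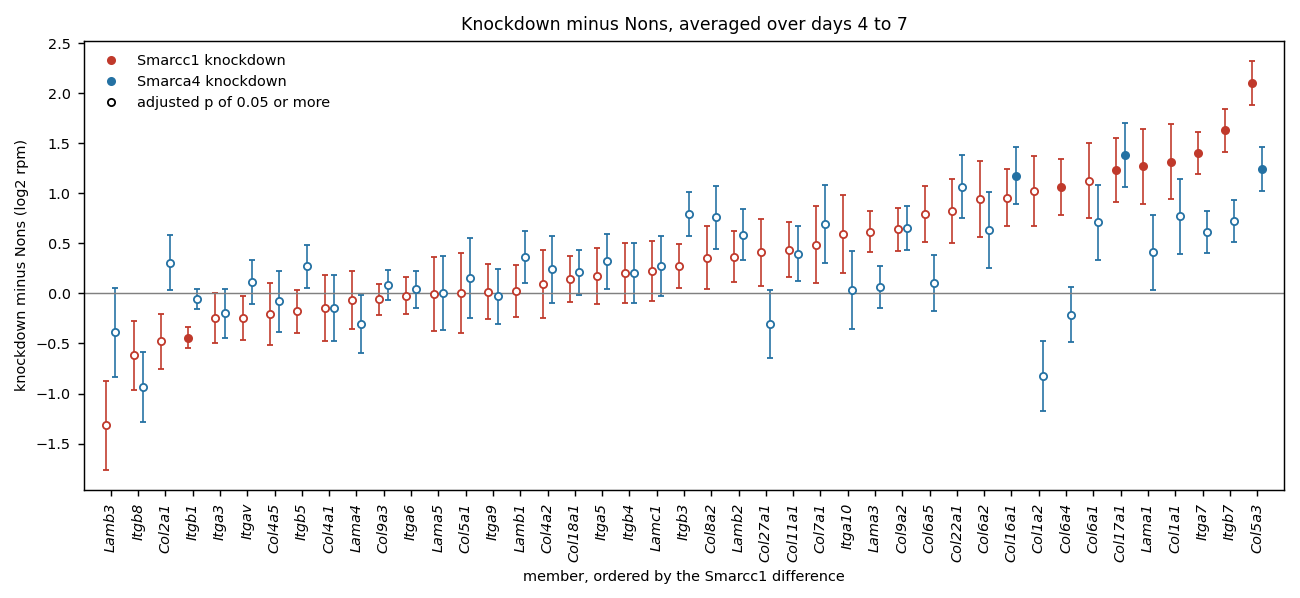
Knockdown minus Nons in log2 rpm, averaged over days 4 to 7, for 43 of the 44 tested members; red is *Smarcc1* knockdown, blue *Smarca4* knockdown, bars are standard errors and open points did not pass an adjusted *p* of 0.05. *Col5a3* is at 2.10 and 1.25 at the right, and *Itgb1* is at -0.44 and -0.06.

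Fewer members passed between *Smarca4* knockdown and Nons, 3 higher and 1 lower of 44 (9.09%), against 4.75% higher, 1.96% lower and 6.71% in either direction among all genes. The median difference was 0.23, against 0.06 for all genes, and the Nons libraries were those used above. *Col5a3* had 6.10, 4.83, 4.66 and 6.31 rpm with Smarca4.4 and 6.59, 3.91, 2.48 and 4.74 rpm with Smarca4.6 over the 4 days, again above same-day Nons in 8 of 8 libraries. The log2 difference was 1.25 ± 0.22 (adjusted *p* = 0.00496), and it missed the threshold without Smarca4.4 (1.06, adjusted *p* = 0.0752). *Col17a1* had 1.37, 2.49, 2.65 and 2.47 rpm with Smarca4.4 and 0.879, 3.14, 2.35 and 1.48 rpm with Smarca4.6, above Nons in 7 of 8 libraries, with a difference of 1.38 ± 0.32 (adjusted *p* = 0.0211). The gap was again widest on day 6, where Nons had 0.191 rpm, or 3 reads. Both *Col17a1* calls share this value near the floor. *Col16a1*, a fibril-associated collagen, had 0.655, 0.253, 0.763 and 3.68 rpm in Nons, 0.598, 1.17, 4.09 and 4.07 rpm with Smarca4.4 and 0.494, 2.17, 2.41 and 4.86 rpm with Smarca4.6. It was below Nons on day 4 and above it later, by 1.17 ± 0.29 on average (adjusted *p* = 0.0274). In Nons, *Col16a1* had only 5 reads on day 5 and 12 on day 6, the days with the widest gaps. *Col17a1* and *Col16a1* lost their calls with the block (adjusted *p* = 0.122 and 0.173), without Smarca4.4 (0.187 and 0.119), without Smarca4.6 (0.128 and 0.146) and with log2(rpm + 1), which gave 0.67 and 0.61 (0.0725 and 0.0651). With quantile normalization *Col17a1* had 1.02 (0.0718).

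No integrin passed. *Itgb3* came nearest, with a log2 difference of 0.79 ± 0.22 (adjusted *p* = 0.0505), followed by *Itgb7* with 0.72 ± 0.21 (adjusted *p* = 0.0629). *Itgb3* (adjusted *p* = 0.0478 and 0.0480) and *Col22a1* (1.07, adjusted *p* = 0.0684, then 0.0136 and 0.0141) passed without the day 5 library of Smarcc1.6 or of Smarcc1.7, with the same differences. *Itgb1* had 299, 306, 695 and 1165 rpm with Smarca4.4 and 319.7, 244, 621 and 1002 rpm with Smarca4.6, a difference of -0.06 ± 0.10 (adjusted *p* = 0.822). The core members *Col4a1*, *Col4a2*, *Lama1*, *Lama5*, *Lamb1* and *Lamc1* had log2 differences of -0.14, 0.24, 0.41, 0.01, 0.36 and 0.27, and *Itga3*, *Itga5*, *Itga6*, *Itgav* and *Itgb5* of -0.20, 0.32, 0.04, 0.11 and 0.27. None of these 11 passed.

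**Figure D5:**
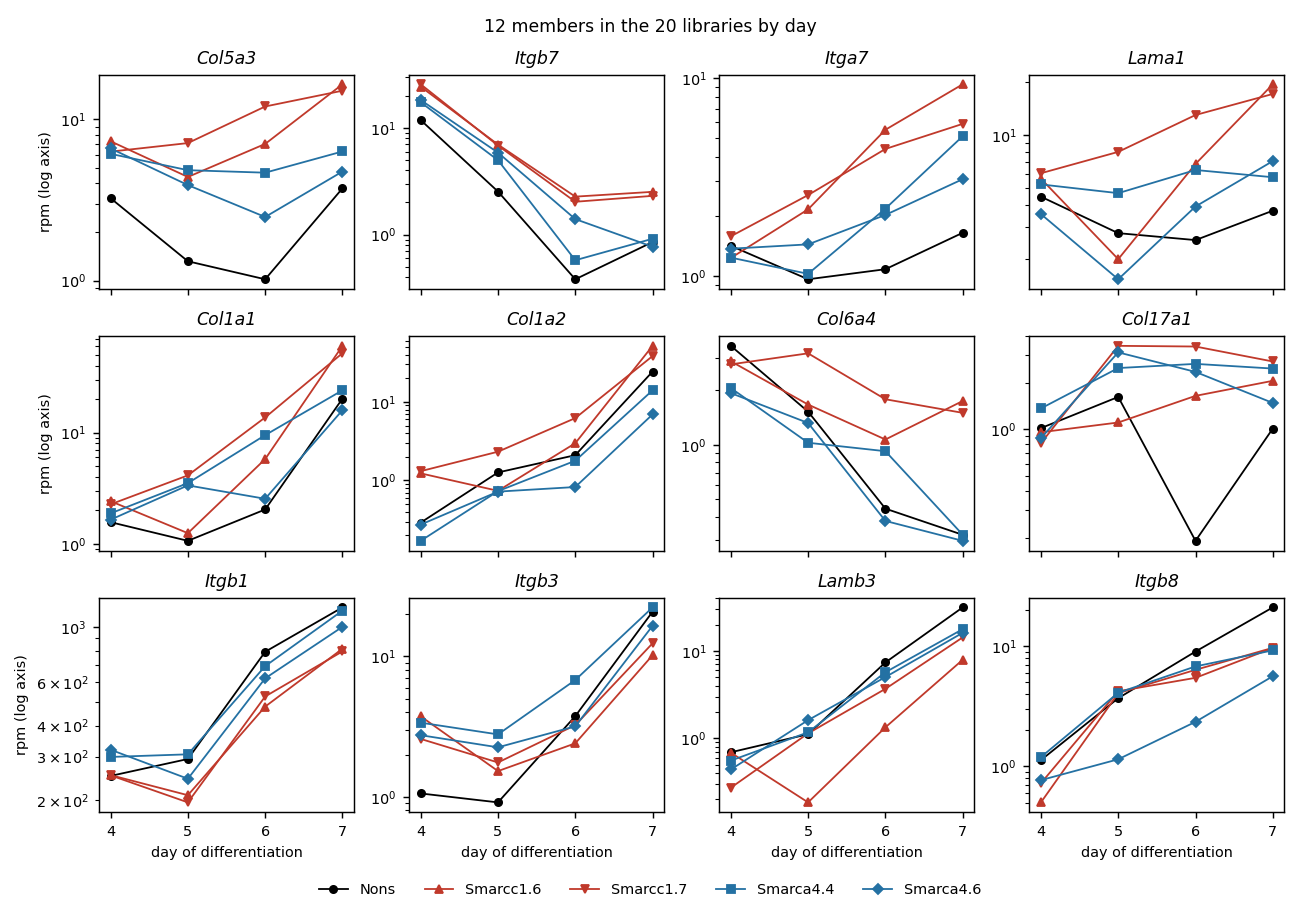
Rpm on a log axis against day of differentiation for 12 members, with Nons in black, *Smarcc1* hairpins in red and *Smarca4* hairpins in blue; each point is 1 library. *Col5a3* lies above Nons in all 16 knockdown libraries, and *Itgb1* reaches 1200.4 rpm on day 7 in Nons and 797 to 1165 rpm in the knockdown libraries.

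Compared directly, 6 of 44 members (13.6%) differed between *Smarcc1* knockdown and *Smarca4* knockdown, against 4.09% of all genes. *Col1a2* gave the largest difference. It had 1.23, 0.739, 2.98 and 51.7 rpm with Smarcc1.6 and 1.31, 2.32, 6.22 and 38.3 rpm with Smarcc1.7, against 0.171, 0.732, 1.78 and 14 rpm with Smarca4.4 and 0.275, 0.722, 0.826 and 6.93 rpm with Smarca4.6. On each of the 4 days both *Smarcc1* hairpins were above both *Smarca4* hairpins. The mean log2 difference was 1.85 ± 0.29 (SE, 8 against 8 libraries, adjusted *p* = 0.00354), and it missed the threshold without Smarca4.6 (1.67, adjusted *p* = 0.103). Nons, at 0.291, 1.27, 2.10 and 24.3 rpm, was above all 8 *Smarca4* knockdown libraries of its days.

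*Col6a4* and *Itgb7* were also higher in both *Smarcc1* hairpins on all 4 days, by 1.27 ± 0.23 and 0.91 ± 0.17 (adjusted *p* = 0.00883 and 0.0113). *Itgb7* had 17.4, 4.98, 0.576 and 0.915 rpm with Smarca4.4 and 18.2, 5.86, 1.40 and 0.770 rpm with Smarca4.6, between Nons and the *Smarcc1* hairpins on days 4 to 6. *Col5a3* and *Itga7* differed by 0.85 ± 0.18 and 0.79 ± 0.17 (adjusted *p* = 0.0191 and 0.0217). *Itgb1* was lower in both *Smarcc1* hairpins on all 4 days, by 0.38 ± 0.08 (log2 difference -0.38, adjusted *p* = 0.0220). With the culture series as a block only *Col1a2* passed (adjusted *p* = 0.0409), the others having adjusted *p* of 0.0834 to 0.180. *Col6a4*, *Col5a3*, *Itga7* and *Itgb1* also missed the threshold when any 1 of the 4 hairpins was left out, with adjusted *p* of 0.0510 to 0.264, and *Itgb7* when Smarcc1.6, Smarcc1.7 or Smarca4.4 was (0.0568 to 0.169) or with quantile normalization (0.0735). *Itgb1* missed it with no filter as well (0.0632). *Lama1* had a difference of 0.86 ± 0.31 (adjusted *p* = 0.162), and 1.11 ± 0.25 (adjusted *p* = 0.0280) without Smarcc1.6 on day 5. Without Smarcc1.7 on day 5, *Lamb3* went from -0.93 (adjusted *p* = 0.211) to -1.26 (0.0233) and *Col2a1* from -0.78 (0.0752) to -0.91 (0.0338).

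No member passed the test of whether its change from day 4 to day 7 differed from that in Nons, for *Smarcc1* knockdown (0.459% of all genes) or *Smarca4* knockdown (0.0827%). By limma, 4 and 3 of 44 members had an unadjusted *p* under 0.05 in these tests (9.09% and 6.82%), against 7.78% and 4.18% of all genes. *Itgb3* had differences from the change in Nons of -2.45 ± 0.62 and -1.64 ± 0.62 on the log2 scale (adjusted *p* = 0.139 and 0.931). With the block, 2 members passed for *Smarcc1* knockdown, *Itgb3* being one (adjusted *p* = 0.0457), and none for *Smarca4* knockdown. On day 7, Nons was above all 4 knockdown libraries for 11 of 44 members (25.0%, against 21.2% of all genes) and below all 4 for 14 (31.8%, against 37.6%), shares close to those of all genes. *Lamb3*, *Itgb4*, *Itgb8* and *Itgb1* were among the 11, with 31.5, 51.6, 21 and 1200.4 rpm in Nons. The knockdown libraries had at most 17.7, 25.1, 9.70 and 1165 rpm of these genes.

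The genes that process, bind or sense these proteins also rose over the days more often than they fell. Among all genes tested, 35.7% were higher and 28.8% lower on day 7, with a median change of 0.08. Of 17 tested collagen synthesis and crosslinking enzymes, 13 were higher on day 7 and 2 lower, with a median log2 change of 1.48. *P4ha1* and *P4ha2*, which hydroxylate collagen prolines, rose by 2.53 and 2.65, *Serpinh1*, the collagen chaperone of the endoplasmic reticulum, by 2.74, and *Loxl2*, a crosslinking enzyme, by 3.82. Of 14 tested basement membrane and matrix glycoproteins, 9 were higher and 2 lower (median 1.52), the perlecan gene *Hspg2* rising by 2.23 and the nidogen gene *Nid1*, which links laminin to collagen IV, changing by -1.01. Of 13 matrix degradation genes, 11 were higher (median 2.06), and *Timp2*, an inhibitor of metalloproteinases, rose by 6.58. Of 16 adaptors and signalling partners of integrins, 11 were higher and 1 lower (median 0.91), *Parva* and *Ilk*, which sit in 1 complex on the tail of β1 integrin, rising by 5.57 and 2.89.

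Between knockdown and Nons few of these genes passed, where over all genes tested 7.54% rose and 3.08% fell with *Smarcc1* hairpins and 4.75% rose and 1.96% fell with *Smarca4* hairpins. In *Smarcc1* knockdown, 4 of the 16 adaptors were lower and none higher, namely *Parva*, *Bcam*, *Ilk* and *Cd151*, with log2 differences of -1.04 ± 0.22, -0.70 ± 0.21, -0.59 ± 0.12 and -0.59 ± 0.13 (adjusted *p* = 0.00897, 0.0455, 0.00542 and 0.0132). These are partners of integrins or laminin receptors. In *Smarca4* knockdown none of the 16 passed. Of the 17 collagen enzymes, none passed in *Smarcc1* knockdown and only *Serpinh1* in *Smarca4* knockdown, with a difference of -0.91 ± 0.13 (adjusted *p* = 0.00109). Among the glycoproteins, *Smoc2*, a matricellular protein, was higher by 3.02 ± 0.21 in *Smarcc1* knockdown and 1.48 ± 0.21 in *Smarca4* knockdown, and *Smoc1*, its relative, by 0.78 ± 0.12 and 0.42 ± 0.12. *Sparc*, a collagen-binding protein, was lower by 0.51 ± 0.12 and 0.43 ± 0.12 (log2 differences of -0.51 and -0.43). Among the matrix degradation genes, *Mmp9*, a gelatinase, was higher in *Smarcc1* knockdown by 1.5 ± 0.16 (adjusted *p* = 7.41e-05), and *Timp3* was lower in both, with -0.76 ± 0.14 and -0.50 ± 0.14.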

How the data were processed

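RNA-seq was performed on 20 libraries. The authors trimmed single-end reads, aligned them to mm10 (HISAT2 in the submitters' processing notes, tophat also in the methods) and deposited log2 rpm values per gene from SeqMonk; the annotation release and the use of strand are not given in the sources used here. The lowest value of each library equals 0.9 of a read, and 100% of values below 1000 reads then came out whole within 0.05 of a read, which gave the reads quoted. 4 further Nons samples were not analysed here.

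The 74 members, the gene lists and the marker lists were chosen with earlier results of these data known. limma 3.58.1 in R 4.3.3 (trend) was fitted to the log2 rpm of 13296 genes with a mean of at least 0, with 12 group-by-day means and 8 residual degrees of freedom, all from hairpin pairs; contrasts were averaged over days and *p*-values adjusted by Benjamini-Hochberg over all genes (threshold 0.05). In simulated data with 12905 genes tested for *Smarcc1* knockdown minus Nons, 99.0% of the changed genes were recovered. The simulated reads were drawn independently, with the same change on all days and no effect of hairpin or series. This checks the fitting code and does not measure the power of the real design. Fold changes are those of the log2 values. Levels per kb used the union of exons in GENCODE M21. Named were the members past the threshold, of which 1 is counted but not reported here, 12 core members (*Col4a1*, *Col4a2*, *Lama1*, *Lama5*, *Lamb1*, *Lamc1*, *Itga3*, *Itga5*, *Itga6*, *Itgav*, *Itgb1* and *Itgb5*), for the days the 10 largest changes each way, and the 5 genes most like *Col4a1* and *Lama1*. Other members were named after their values were seen.

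The hairpin numbers name constructs, not shared cultures. As the replicate block, the series formed by 1 construct over its 4 days entered as a random effect (consensus correlation 0.217). Between days, the deviations of a construct had a mean correlation of 0.331 for *Smarcc1* and 0.093 for *Smarca4*. The alternatives were other filters, 1 rpm added, median centring, quantile normalization, voom on recovered reads, the block, each hairpin or the smallest library left out, the knockdown libraries alone and, chosen after seeing the data, the day 5 library of Smarcc1.6 or of Smarcc1.7 left out. Exons of 23 members share bases with another gene, over 10% only in *Itga10*.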

Additional observations from a re-analysis of the deposited data

Results flagged for a closer look

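Tests of the difference between the knockdowns, in which the Nons libraries cancel, flagged 6 members. The difference, *Smarcc1* knockdown minus *Smarca4* knockdown in log2 rpm, was 1.85 for *Col1a2*, 1.27 for *Col6a4*, 0.905 for *Itgb7*, 0.854 for *Col5a3*, 0.793 for *Itga7* and -0.385 for *Itgb1*. The differences of *Col1a2* from Nons were 1.02 in *Smarcc1* knockdown and -0.83 in *Smarca4* knockdown, neither of which passed (adjusted *p* = 0.0887 and 0.209). Those of *Col6a4* were 1.06 and -0.21, of which the first passed. *Col5a3* passed in both knockdowns, with 2.10 and 1.25. *Itgb7*, *Itga7* and *Itgb1* passed in *Smarcc1* knockdown, with 1.63, 1.40 and -0.44, and not in *Smarca4* knockdown, with 0.72, 0.61 and -0.06 (adjusted *p* = 0.0629, 0.117 and 0.822). No group had the 4 samples on 1 day that a search for a single outlying library needs.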

How the results depend on the processing

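Each contrast with Nons rests on 1 Nons library per day, and low depth limits members near 3 reads. With a mean of at least 10 rpm, 19 members and 9307 genes were tested, in place of 44 and 13296. *Col5a3*, *Itgb7* and *Itga7* were not tested under this filter, so its lower counts are not all lost calls. Members passing for *Smarcc1* knockdown numbered 9 of 44 (20.5%, against 10.6% of all genes). With the 10 rpm filter they numbered 2 of 19 (10.5%, against 6.22%). They numbered 4 with the replicate block and 15 without the day 5 library of Smarcc1.6 (1799 of all genes). When a hairpin was left out they numbered 5 to 12 (5 without Smarcc1.7). For *Smarca4* knockdown members passing numbered 4 of 44 (9.09%, against 6.71% of all genes), and 1 of 19 with the 10 rpm filter (5.26%, against 3.48%). They numbered 2 with the replicate block and 1 to 5 when a hairpin was left out (1 without Smarca4.6). Between the knockdowns they numbered 6 of 44 (13.6%, against 4.09% of all genes), and 1 of 19 with the 10 rpm filter (5.26%, against 2.59%). They numbered 1 with the replicate block and 1 to 3 when a hairpin was left out. From day 4 to day 7 they numbered 34 of 44 (77.3%, against 64.5% of all genes), and 15 of 19 with the 10 rpm filter (78.9%, against 62.5%). They numbered 32 to 35 when a hairpin was left out. For the change over days against Nons, the replicate block gave 2 in *Smarcc1* knockdown where 0 passed. Over all genes, the block called 605, 258 and 105 in place of 1412, 892 and 544, the 10 rpm filter 579, 324 and 241, and leaving out a hairpin 843 to 1288, 277 to 656 and 49 to 263, and 1067 differed between the knockdowns without the smallest library. For the change over days against Nons, 61 genes passed in *Smarcc1* knockdown, 0 to 175 under the alternatives, and 11 in *Smarca4* knockdown, 0 to 20. Median centring moved the median gene of day 7 minus day 4 from 0.08 to -0.09. The split between the knockdowns was 5 higher and 1 lower, 4 and 2 with quantile normalization.

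Single members were followed under the alternatives only where they passed or were among the 12 core members, and of these, directions turned for core members that did not pass. For *Smarcc1* minus Nons, leaving out a *Smarcc1* hairpin gave -0.423 to 0.136 for *Col4a1*, -0.268 to 0.457 for *Col4a2*, -0.533 to 0.52 for *Lama5*, -0.351 to 0.404 for *Lamb1*, -0.122 to 0.574 for *Lamc1*, -0.515 to 0.0238 for *Itga3*, -0.136 to 0.483 for *Itga5*, -0.168 to 0.123 for *Itga6*, -0.516 to 0.0304 for *Itgav* and -0.402 to 0.0426 for *Itgb5*, each time the lower without Smarcc1.7. Without the day 5 library of Smarcc1.6, *Col4a1*, *Lama5* and *Itga6* had 0.0447, 0.239 and 0.0626, and without that of Smarcc1.7, *Col4a2*, *Lamb1* and *Itga5* had -0.108, -0.136 and -0.0098. Quantile normalization gave 0.0264 for *Lama5* and median centring -0.0314 for *Lamb1*. For *Smarca4* minus Nons, leaving out a *Smarca4* hairpin gave -0.482 to 0.198 for *Col4a1*, -0.214 to 0.231 for *Lama5*, -0.126 to 0.206 for *Itga6*, -0.00726 to 0.235 for *Itgav* and -0.133 to 0.0204 for *Itgb1*, each time the lower without Smarca4.4. Median centring gave -0.0663 for *Lama5* and -0.0349 for *Itga6*, and leaving out the smallest library -0.0708 and -0.0595. For day 7 minus day 4, quantile normalization gave 0.124 for *Lamc1*. The cause was not tested.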

Other observations

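The low genes outside the tests held further day-specific patterns. *Col25a1*, a transmembrane collagen of neurons, had 0 to 1 read on day 4 and 4 to 43 reads on day 7, the highest being Nons at 2.29 rpm against 0.237 to 0.778 rpm in the knockdown libraries. *Col5a2*, the partner chain of *Col5a1* in collagen V, had 3.94 rpm in Nons on day 7 against 0.458 to 0.961 rpm in the 4 knockdown libraries, while *Col5a3* of the same collagen was lower in Nons. *Col6a6*, another alternative collagen VI chain, had 5 to 29 reads on day 4 and 0 to 2 on day 7, the direction of *Col6a4* and *Col6a5*. *Col20a1* had 4 to 14 reads on day 4 and 25 to 80 on day 7. These are values of single libraries with few reads, and none was tested.

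On day 6 the library of Smarcc1.7 held the highest value of its day for 24 of 44 members (54.5%, against 34.6% of all genes), and on day 5 it did so for 23 (52.3%, against 16.7%). Smarcc1.6 was highest for 1 member on day 5 and for 2 on day 6. It was lowest for 23 members on day 5 (52.3%, against 36.3% of all genes) and for 15 on day 6 (34.1%, against 17.2%). Nons was also lowest for 15 on day 6 (34.1%, against 28.8%). Members with 1 *Smarcc1* hairpin lowest and the other highest were not counted.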
